A study of Mus musculus with 2 samples.

Results

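Lyve1 Folr2 resident aortic macrophages are described here as 1979 single cells among 24504 kept cell barcodes from mouse aorta, 1121 of 12466 in the treated-labelled library and 858 of 12038 in the control-labelled library. They were chosen on their own measured transcripts. A kept barcode had at least 500 detected genes and at most 15% mitochondrial UMIs (unique molecular identifiers, each standing for 1 captured RNA molecule). Among those, a resident macrophage had at least 3 summed UMIs of C1qa, C1qb and C1qc, the chains of complement C1q that mark macrophages, and at least 4 summed UMIs of the 5 resident markers Lyve1, Folr2, F13a1, Cbr2 and Cd163. It also had at most 4 summed UMIs of the foam cell genes Gpnmb, Ctsk, Mmp12 and Spp1, at most 1 of the cell cycle genes Mki67, Top2a and Birc5, and none of the T cell gene Cd3e or the B cell gene Cd79a. Since these values and the others of the same cells chose the members, their levels against other macrophages are given as a description.

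Arteries hold macrophages that settle there early in life and renew themselves locally, beside macrophages that arise from blood monocytes. The resident cells lie mainly in the outer wall, take up hyaluronan, folate and haemoglobin complexes through receptors such as LYVE1, FR-beta and CD163, and clear dying cells. Macrophages that load lipid in atherosclerotic plaques, foamy macrophages, carry another set of genes around Trem2 and Gpnmb. IRF5 is a transcription factor downstream of Toll-like receptors that drives inflammatory cytokine genes in macrophages.

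The study profiled CD45+ leukocytes of the vessel wall with 10x Genomics 3′ single-cell libraries. A treatment called ZnDPA@siIRF5 was studied for what it does to macrophages of diseased aortas. Its name gives a small interfering RNA against Irf5. There was 1 library labelled as treated and 1 labelled as control, called here the treated-labelled and the control-labelled library because Irf5 transcripts, given further on, did not separate them. The labels give no genotype, diet, age, sex, dose or time, no number of pooled animals and no content of the control injection, so what both groups share could not be listed. With 1 library per group there is no replicate check and no test of the treatment. Every interval covers counting error only, at 95%, and a difference between the libraries cannot be told apart from a difference between animals, cell preparations or library reactions. Values are CPM, the UMIs of a gene summed over all resident macrophages of a library per 1000000 of their summed UMIs, and log2 ratios are of CPM in the treated-labelled library over the control-labelled library.

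The deposited matrices held 13155 barcodes and 77856529 UMIs in the treated-labelled library and 12516 barcodes and 88567528 UMIs in the control-labelled library, of which 689 and 478 barcodes failed the cell filters. The libraries shared 45 barcode sequences, none of them among the resident macrophages. Resident macrophages had 6344 UMIs and 2326 genes at the median in the treated-labelled library, against 5724 UMIs and 2118 genes in the control-labelled library. Their summed depth was 7616636 UMIs in the treated-labelled library and 5221566 in the control-labelled library. Scrublet, which scores likely cell doublets, called 4.37% of resident macrophages in the treated-labelled library and 1.98% in the control-labelled library, against 3.84% and 3.70% of all barcodes. Called barcodes were kept.

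Resident macrophages made up 8.99% of kept barcodes in the treated-labelled library (exact Clopper-Pearson interval 8.50 to 9.51%), and 7.13% in the control-labelled library (6.67 to 7.60%). Set against C1q macrophages alone, the order was the other way. They were 52.9% of 2118 C1q macrophages in the treated-labelled library (50.8 to 55.1%) and 60.0% of 1429 in the control-labelled library (57.4 to 62.6%). The remaining C1q macrophages were 228 and 156 cells in the foamy range, with more than 4 foam cell UMIs, and 769 and 415 cells low in both gene sums. C1q macrophages of all 3 kinds were more numerous in the treated-labelled library, the low cells most of all. Sorting and loading set such shares as well as the tissue, and their part was not tested.

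Of the 5 markers that define the cells, 4 were lower in the treated-labelled library by more than counting error, and Folr2 was level. Lyve1, a hyaluronan receptor shared with lymphatic vessels, lies on chr7:110850607-110863239, minus strand, of mouse build GRCm38. It had 369 CPM in the treated-labelled library and 539 CPM in the control-labelled library, a log2 ratio of -0.55 (interval -0.62 to -0.47). Cd163, the receptor for haemoglobin bound to haptoglobin (chr6:124304656-124330527, plus strand), had 219 CPM in the treated-labelled library and 355 CPM in the control-labelled library, a log2 ratio of -0.70. F13a1, the A chain of coagulation factor XIII (chr13:36867178-37050244, minus strand), had 1511 CPM in the treated-labelled library and 1915 CPM in the control-labelled library. Blood monocytes also express F13a1.

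Cbr2, a carbonyl reductase (chr11:120729489-120732114, minus strand), had 540 CPM in the treated-labelled library and 648 CPM in the control-labelled library. Folr2, a folate receptor (chr7:101839988-101857194, minus strand), had 790 CPM in the treated-labelled library and 812 CPM in the control-labelled library (-0.04, -0.10 to 0.02), and its sign turned under alternatives that ran from -0.12 to 0.02. The median of the 5 log2 ratios was -0.34, where the median over all 5807 genes past the abundance minimum was 0.08. The rule requires these genes, so a floor of 4 UMIs is shared by every cell of both libraries and the ratios describe the cells above it.

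Cell by cell, the summed marker count had a median of 18 UMIs in the treated-labelled library (quartiles 9 and 32) and 23 UMIs in the control-labelled library (quartiles 10 and 35). All 5 markers were seen together in 26.2% of the cells in the treated-labelled library and 35.7% in the control-labelled library. Lyve1 had a UMI in 57.1% of cells in the treated-labelled library and 67.0% in the control-labelled library, and in 39.3% and 50.9% once each cell was thinned to 2000 UMIs. T cells of the same libraries, which should lack Lyve1, had a UMI in 0.124% and 0.690% of cells, at median depths of 4917 and 4217 UMIs. Lyve1 is a gene of the rule, so its detection in the members above T cells follows from the choice of cells.

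**Figure D1:**
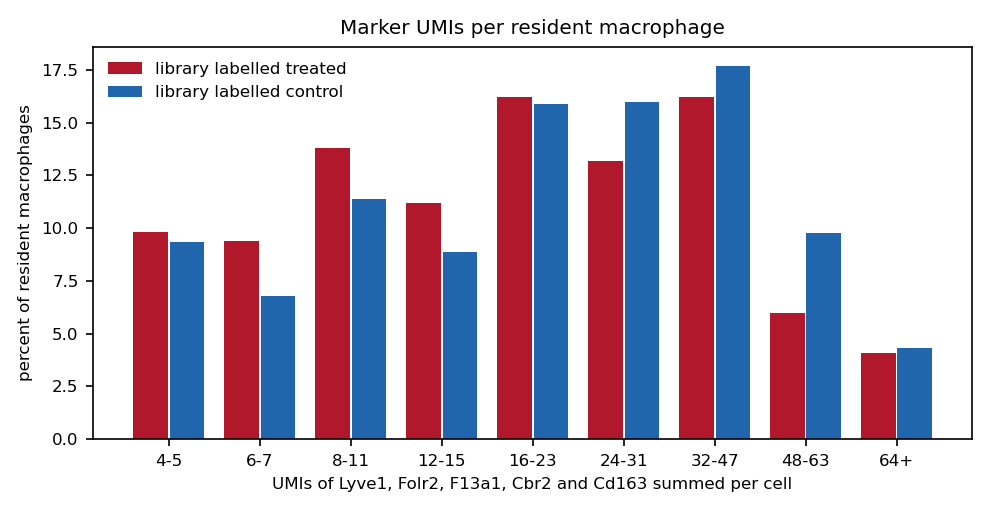
Percent of resident macrophages (vertical axis) by the summed UMIs of the 5 resident markers per cell (horizontal axis, in ranges), for the treated-labelled library and the control-labelled library. Cells with 4 or 5 marker UMIs were 9.81% and 9.32% of the members, and cells with 48 to 63 were 5.98% and 9.79%.

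The rule also admitted cells that its name fits less well. F13a1, which blood monocytes express too, was the only marker seen in 66 members of the treated-labelled library (5.89%) and 52 of the control-labelled library (6.06%). The other 4 markers alone reached 4 UMIs in 77.4% and 81.8% of members. At the threshold itself, the 60 and 51 cells with exactly 4 marker UMIs had 814 and 747 CPM of the mannose receptor Mrc1. The 93 and 37 C1q macrophages with 3 marker UMIs, just outside, had 806 and 506 CPM. Across the foam cell limit, 9 and 3 cells had 4 foam cell UMIs and 9 and 5 cells had 5. Foam cell genes were rare among the members, of which 79.1% in the treated-labelled library and 83.1% in the control-labelled library had no UMI of them at all.

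The members were also split by whether a Lyve1 UMI was seen, at nearly the same depth of 6338 against 6344 median UMIs in the treated-labelled library and 5699 against 5836 in the control-labelled library. The 640 Lyve1-positive cells of the treated-labelled library had 321 CPM of Cd163, against 80.3 CPM in its 481 cells without a Lyve1 UMI. In the control-labelled library the 575 positive cells had 454 CPM of Cd163 and the 283 others 157 CPM. Vsig4, a complement receptor of tissue macrophages, had 141 CPM in Lyve1-positive cells and 12.1 CPM in the others of the treated-labelled library, and 163 and 25.9 CPM in the control-labelled library. The lectin gene Cd209f had 253 and 42.6 CPM in the treated-labelled library and 244 and 21.8 CPM in the control-labelled library.

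Cells without Lyve1 had to reach the rule's 4 UMIs through the other markers, of which Cd163 is one, and Cd163 was still lower in them. Vsig4 and Cd209f are not genes of the rule. All these values describe the split and show no separate populations. Antigen presentation and monocyte genes were higher in the cells without a Lyve1 UMI. H2-Ab1, a chain of MHC class II, had 2273 CPM in Lyve1-positive cells and 4462 CPM in the others of the treated-labelled library, and 1963 and 4511 CPM in the control-labelled library. Ccr2, the receptor that brings monocytes into tissue, had 90.2 and 333 CPM in the treated-labelled library and 74.4 and 338 CPM in the control-labelled library. Ly6c2, which marks classical monocytes, had 37.9 and 120 CPM in the treated-labelled library and 26.4 and 134 CPM in the control-labelled library. Irf5 was also higher in the cells without a Lyve1 UMI, with intervals that did not overlap in either library, at 97.0 and 124 CPM in the treated-labelled library and 91.9 and 126 CPM in the control-labelled library.

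Clustering of the members from both libraries gave 8 sub-clusters, called here by number and leading genes. Sub-cluster 4 (248 cells) had the most Lyve1 and Cd163, with 917 CPM of Lyve1, 845 of Folr2, 525 of Cd163, 252 of Vsig4 and 119 of Timd4, a receptor for phosphatidylserine on dying cells, and with only 946 CPM of H2-Ab1 and 21.0 of Ccr2. Sub-clusters 2 (478 cells), 5 (440 cells) and 6 (196 cells) also had over 500 CPM of Lyve1, and had more Folr2, at 1217, 984 and 995 CPM. Cd209f was at 97.6 CPM in sub-cluster 4 and 342 CPM in sub-cluster 2. Sub-cluster 5 was led by the heat shock genes Hspa1b and Hspa1a and the immediate early genes Jun and Egr1, after Gzma with 98.7% of its UMIs from 1 cell. Marco headed sub-cluster 6, with all of its UMIs from 1 cell, before C9 and Myo5c. The plasma cell genes Jchain and Mzb1, and Cd5l with 77.1% of its UMIs from 1 cell, were also among its top genes. Sub-cluster 6 had the most of the immunoglobulin gene Igkc, 5697 CPM, and the lowest median depth, 3768 UMIs. Mast cell genes stood among the top genes of sub-cluster 2, but 93.5% of the Tpsb2 UMIs and 97.3% of the Mcpt4 UMIs came from 1 cell.

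The other 4 sub-clusters had 45.4 to 225 CPM of Lyve1. Sub-cluster 1 (367 cells) combined 4808 CPM of H2-Ab1 with 1008 CPM of Il10 and was led by Tmem171, St18, Tnip3 and Ifnb1. Sub-cluster 3 (122 cells) was led by Vcan and Ly6i, with 449 CPM of Ly6c2, and 16.4% of it was called as doublets. Its top genes also held Calca, Arg1, Tox, Chil3, Icos and P2ry10, with 94.0% of the Arg1 UMIs from 1 cell. Tox had 55.8 CPM there and 2.5 CPM in the other members, and Icos 51.8 and 2.59 CPM. Sub-cluster 7 (63 cells) was led by the neutrophil genes S100a8, Retnlg and Cxcr2, and 57.1% of it was called as doublets. Sub-cluster 8 (65 cells) was led by Ear2, Lyz1 and Fn1 and had 14951 CPM of Retnla, 45.4 CPM of Lyve1 and no UMI of Vsig4. Sub-cluster 4 held 8.56% of members in the treated-labelled library and 17.7% in the control-labelled library. Sub-cluster 5 held 26.9% and 16.1%. In percentage points these were the widest gaps among the sub-clusters, with opposite directions. Levels of the genes that define the sub-clusters differ between the libraries, so these shares are no result apart from those levels.

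**Figure D2:**
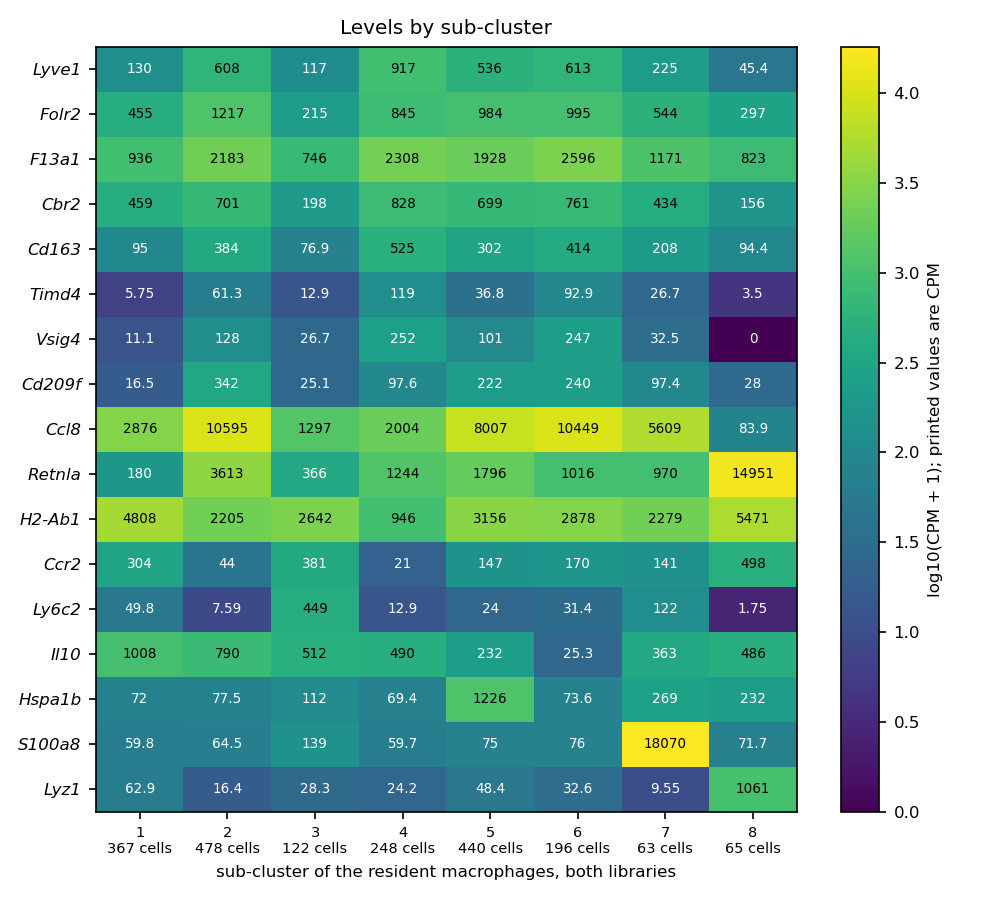
CPM of 17 genes (rows) in the 8 sub-clusters of resident macrophages, cells of both libraries pooled (columns, with cell numbers), coloured by log10(CPM + 1). Lyve1 had 917 CPM in sub-cluster 4 and 45.4 CPM in sub-cluster 8, and S100a8 had 18070 CPM in sub-cluster 7.

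The genes not used by the rule set the members apart from the other C1q macrophages of the same library. Past 1.5-fold in both libraries, 608 of 5756 genes (10.6%) were higher in the members and 438 (7.61%) were lower. Of 36 genes listed for the resident programme of arterial and other tissue macrophages, 30 were higher in both libraries and none lower, with a median log2 ratio of 1.82 in the treated-labelled library and 1.98 in the control-labelled library. Over all genes the medians were near 0, at 0.00 and -0.08. Of the 19 genes listed for recruited monocytes that passed the abundance minimum, 13 were lower in both libraries, and so were 14 of 20 foam cell genes outside the rule. Because the cells were picked by co-expressed markers, these counts describe the choice and test nothing.

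The lectin genes of the Cd209 cluster, relatives of human DC-SIGN that bind sugars on microbes, led the list. Cd209d had 117 CPM in members and 3.98 CPM in other C1q macrophages of the treated-labelled library, and 174 and 3.64 CPM in the control-labelled library. Cd209f had 164 and 6.73 CPM in the treated-labelled library and 170 and 5.20 CPM in the control-labelled library. Next came Enpep, an aminopeptidase that cleaves angiotensin, with 28.4 and 1.53 CPM in the treated-labelled library and 26.0 and 1.04 CPM in the control-labelled library. It was followed by C6, a terminal complement component, with 109 and 4.74 CPM in the treated-labelled library and 131 and 7.55 CPM in the control-labelled library. Fcna, a ficolin that opens the lectin pathway of complement, had 339 and 24.5 CPM in the treated-labelled library and 402 and 30.7 CPM in the control-labelled library.

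Ccl8, a chemokine for monocytes and T cells, had 5842 CPM in members and 673 CPM in other C1q macrophages of the treated-labelled library, and 6434 and 476 CPM in the control-labelled library. Egfr, the receptor for epidermal growth factor, had 48.3 and 3.21 CPM in the treated-labelled library and 52.9 and 3.12 CPM in the control-labelled library. Gas6, the bridge between phosphatidylserine on dying cells and the receptors MERTK and AXL, stood 2.97 log2 units above the others in the treated-labelled library and 3.21 in the control-labelled library. MERTK itself was not a mark of these cells, with a Mertk log2 ratio of 0.38 and 0.34, and Axl was lower in them, at -1.08 and -1.35.

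At the other end, Cd9, a tetraspanin of lipid-associated macrophages, had 65.0 CPM in members and 704 CPM in the others of the treated-labelled library, and 56.3 and 694 CPM in the control-labelled library. Fabp5, a fatty acid carrier, had 109 and 686 CPM in the treated-labelled library and 51.3 and 683 CPM in the control-labelled library. The integrin gene Itgax, which encodes CD11c, had 8.27 and 62.4 CPM in the treated-labelled library and 3.64 and 67.6 CPM in the control-labelled library. Mfge8, another bridge to dying cells, had 5.78 and 35.2 CPM in the treated-labelled library and was lower in the members of the control-labelled library too. The others pool foamy range cells, with 91.8 and 147 CPM of Mfge8 by library, and low cells. Low cells had 7.52 and 11.5 CPM, against 5.78 and 7.66 CPM in members. In low cells Cd9 had 258 CPM in the treated-labelled library and 232 CPM in the control-labelled library, and Fabp5 278 and 177 CPM.

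**Figure D3:**
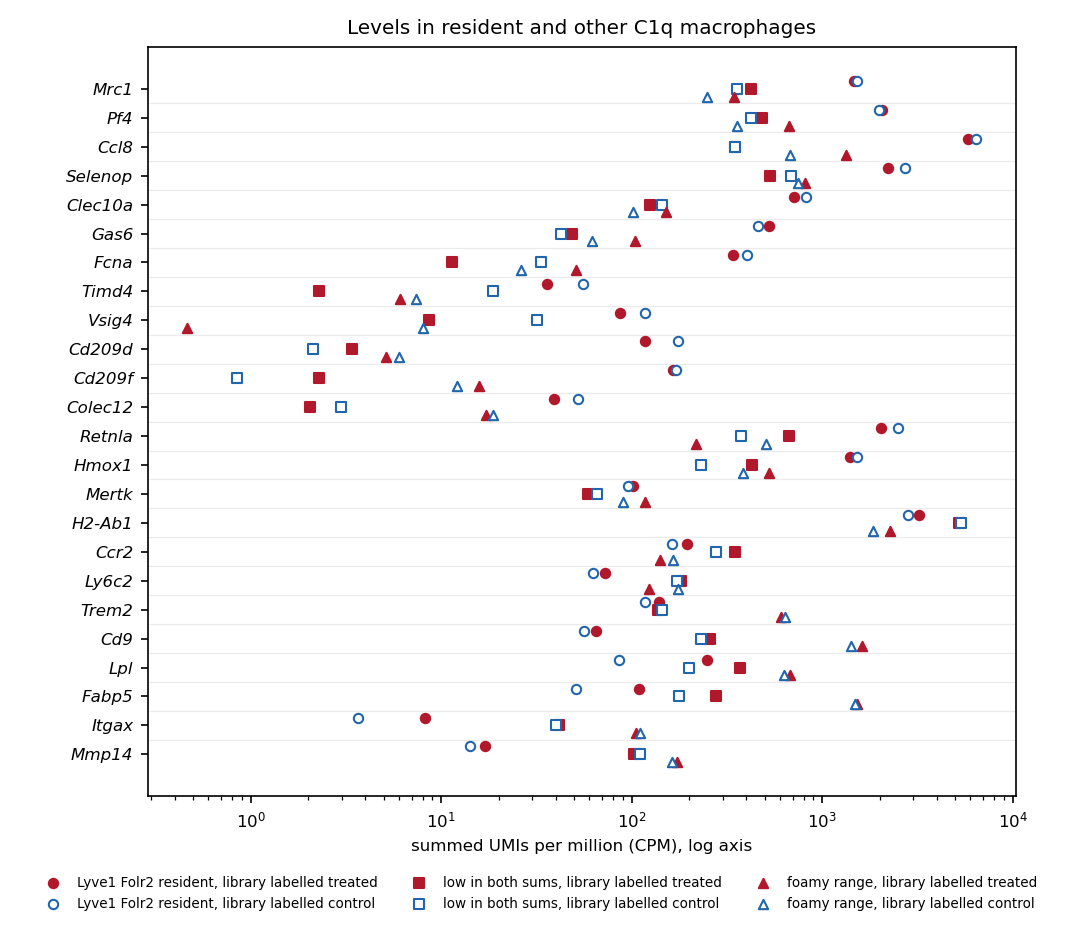
CPM on a log axis of 24 genes outside the rule in resident macrophages (circles), C1q macrophages low in both sums (squares) and foamy range cells (triangles), filled for the treated-labelled library and open for the control-labelled library. Genes from Mrc1 down to Hmox1 lie to the right in resident macrophages, and Cd9, Lpl, Fabp5, Itgax and Mmp14 lie to the left of the other populations of the same library.

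Irf5, the gene named by the treatment (chr6:29526625-29541871, plus strand), was at the same level in the members of both libraries within counting error. It had 108 CPM (825 UMIs) in the treated-labelled library and 103 CPM (539 UMIs) in the control-labelled library, a log2 ratio of 0.07 (-0.09 to 0.23). The interval reaches down to a log2 ratio of -0.09, so a larger fall in resident macrophage Irf5 transcripts lies outside counting error. An Irf5 UMI was seen in 45.2% of members in the treated-labelled library and 41.6% in the control-labelled library, against 9.89% and 6.13% of T cells. The ratio was 0.17 in the low C1q macrophages and 0.02 in the foamy range cells. With each cell thinned to 2000 UMIs the ratio in resident macrophages was 0.26. The 3′ UMIs count transcripts and do not measure IRF5 protein.

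Among other members of the IRF family, Irf1 and Irf4 were past 1.5-fold, in opposite directions. Irf1, an early target of interferon gamma, had 131 CPM in the treated-labelled library and 67.2 CPM in the control-labelled library (log2 ratio 0.96, 0.78 to 1.14). Irf4, which acts in alternatively activated macrophages, had 37.2 CPM in the treated-labelled library and 62.6 CPM in the control-labelled library (-0.75, -0.99 to -0.52). Irf7, the amplifier of type I interferon, had 122 and 91.5 CPM, and Irf8, a lineage factor of monocytes and dendritic cells, had 128 and 102 CPM. Of the 8 family members measured, 6 had a ratio above 0, as did 64.2% of all genes past the abundance minimum, so this count is no result about the family. Over 21 measured genes upstream of IRF5, the Toll-like receptors and their adaptors, the median was 0.04. Of the 16 past the abundance minimum, 2 were at least 1.5-fold higher and none lower. Slc15a4, the lysosomal transporter through which endosomal Toll-like receptors reach IRF5, had 38.7 CPM in the treated-labelled library and 22.8 CPM in the control-labelled library. Tlr7, an endosomal receptor for RNA, had 73.4 and 95.4 CPM.

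Over all 5807 genes with at least 50 UMIs and 20 CPM in 1 library, 167 (2.88%) were at least 1.5-fold higher in members of the treated-labelled library and 81 (1.39%) were at least 1.5-fold lower. The median gene stood at a log2 ratio of 0.08, 64.2% of genes lay above 0, and the central 95% ran from -0.48 to 0.60. Of the genes past 1.5-fold, 67.3% were higher, and 43.8% were higher once the median was subtracted, so the balance of directions is no result. Counts of listed genes below are read against those 2 background shares, and counts above 0 against the 64.2%. The lists were chosen with earlier results of these data known, so such counts are a description.

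The genes with the largest ratios fell into 2 kinds. In the first, a few cells carried nearly all UMIs. Marco, a scavenger receptor, had 173 UMIs in 3 cells of the treated-labelled library, 84.4% of them in 1 cell, and none in the control-labelled library. With 3 UMIs in place of 0 it was 39.5-fold higher, a log2 ratio of 5.30, and the counting interval began at 4.99. The mast cell proteases Mcpt4 and Cma1 had 365 and 369 UMIs in the treated-labelled library, of which 70.1% and 72.1% came from 1 cell, and 30 and 34 UMIs in the control-labelled library. Cd5l had 269 UMIs in the treated-labelled library, 60.2% from 1 cell, and 62 in the control-labelled library. The neutrophil granule genes Camp and Ltf ran the other way, at 131 and 35 UMIs in the treated-labelled library and 489 and 129 in the control-labelled library, and in the control-labelled library 50.1% and 45.0% of them came from 1 cell. Without barcodes called as doublets the Camp log2 ratio was 0.28 in place of -2.44.

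In the second kind, many cells contributed. The clock genes Dbp, Nr1d1 and Arntl belong here and are taken up further on. Plxnd1, a semaphorin receptor, had 82.7 CPM in 446 cells of the treated-labelled library and 30.6 CPM in 130 cells of the control-labelled library (log2 ratio 1.43). Jaml, an adhesion molecule of leukocytes, had 11.6 CPM in 77 cells of the treated-labelled library and 29.1 CPM in 112 cells of the control-labelled library (-1.33). Ifnb1, the type I interferon gene itself, had 22.7 CPM in 72 cells of the treated-labelled library and 49.2 CPM in the control-labelled library (-1.12).

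Of the 36 genes of the resident programme, 2 were past 1.5-fold higher (Ccl24 and Cd5l) and 2 lower (Timd4 and Cd209b). The median log2 ratio was -0.07, where that of all genes was 0.08. Only 12 of the 36 had a ratio above 0, where 64.2% of all genes did. The phosphatidylserine receptor Timd4, a mark of long-lived resident macrophages, had 36.0 CPM in the treated-labelled library and 55.5 CPM in the control-labelled library (-0.63, -0.87 to -0.38). Its share of cells with a UMI was 13.1% in the treated-labelled library and 19.3% in the control-labelled library, and 0.186% and 0.230% in T cells. Vsig4 had 86.4 CPM in the treated-labelled library and 118 CPM in the control-labelled library (-0.45). Cd209b had 44.2 and 69.3 CPM and Cd209d 117 and 174 CPM. These 4 are the ones shown of 24 genes of the list with a ratio below 0, and 12 were above it.

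Others of the programme went both ways or were nearly level. Ccl24, an eosinophil chemokine, had 244 CPM in the treated-labelled library and 149 CPM in the control-labelled library (0.72, and 0.34 in cells with at most 1 UMI of other lineages), and was also higher in the low and foamy cells, at 0.75 and 1.48. Gas6 had 525 CPM in the treated-labelled library and 462 CPM in the control-labelled library (0.18). Mrc1 had 1465 and 1515 CPM, Pf4, a platelet-type chemokine of macrophages, 2068 and 1979 CPM, and Cd209f 164 and 170 CPM. Maf, a transcription factor of macrophage identity, had 537 CPM in the treated-labelled library and 444 CPM in the control-labelled library (0.28). Selenop, a secreted selenium carrier, had 2207 and 2729 CPM (-0.31).

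Engulfment of dying cells, the function named in the study's title, was read from 29 measured genes, of which 16 had a ratio above 0 (64.2% of all genes did). Of the 23 past the abundance minimum, 2 were at least 1.5-fold higher and 1 lower. The median log2 ratio was 0.08. That is the median of all genes. Mertk had 101 CPM in the treated-labelled library and 95.2 CPM in the control-labelled library (0.09, -0.07 to 0.26), and Axl had 61.7 and 62.1 CPM (-0.01). The scavenger receptor Stab1 had 269 CPM in both. The receptors and bridges of phosphatidylserine that differed most went in opposite directions.

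Thbs1, thrombospondin 1, which bridges dying cells to CD36, had 227 CPM in the treated-labelled library and 120 CPM in the control-labelled library (0.92). It was seen in 224 and 84 members and stood below other C1q macrophages by log2 ratios of -1.33 and -1.52. In cells with at most 1 UMI of other lineages the ratio between libraries was 0.38. Cd36 had 457 CPM in the treated-labelled library and 634 CPM in the control-labelled library (-0.47), and Itgav, the integrin that works with it, had 333 and 438 CPM (-0.39). Tgm2, a transglutaminase of phagocytic cups, had 45.7 and 30.3 CPM (0.59). Nr1h3, the sterol sensor LXR alpha that switches on engulfment genes, had 11.8 CPM in the treated-labelled library and 6.13 CPM in the control-labelled library (0.95), from 90 and 32 UMIs, and 0.31 with cells thinned. In foamy range cells the median of the list was 0.10 and in the low cells 0.03.

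Genes that interferon gamma switches on were higher in the treated-labelled library as a group. Of 22 measured genes, 20 had a ratio above 0, and 9 of the 18 past the abundance minimum were at least 1.5-fold higher, where the background was 2.88%, and none lower. The list was chosen with earlier results of these data known, so these counts describe the listed genes and are no test. The median log2 ratio was 0.59, and 0.68 and 0.58 in foamy range and low C1q macrophages, above 0 in all 3 populations. The guanylate-binding proteins, GTPases that attack intracellular microbes, were among the furthest. Gbp2 had 71.0 CPM in the treated-labelled library and 38.9 CPM in the control-labelled library (0.87, 0.63 to 1.11), and Gbp5 had 27.6 and 11.1 CPM (1.31, 0.89 to 1.76). The related GTPases Iigp1 and Irgm1 had 64.9 and 42.1 CPM in the treated-labelled library and 35.4 and 23.6 CPM in the control-labelled library.

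Antigen processing for MHC class I was on the same side. Its list shares at least Psmb8 with the interferon gamma list, so the lists are not separate results. The peptide transporter Tap1 had 73.8 CPM in the treated-labelled library and 39.6 CPM in the control-labelled library (0.90), and the immunoproteasome subunit Psmb9 had 113 and 77.0 CPM (0.56). All 14 MHC class I genes had a ratio above 0, with a median of 0.27, though only Tap1 passed 1.5-fold. B2m, the light chain, had 2077 CPM in the treated-labelled library and 1726 CPM in the control-labelled library. MHC class II had no such shift, with a median of 0.09 over 12 genes and H2-Aa at 5928 and 5354 CPM. The chemokine Cxcl10 and the feedback inhibitor Socs1, both usual interferon gamma targets, were the 2 exceptions, Cxcl10 at 390 CPM in the treated-labelled library and 399 CPM in the control-labelled library and Socs1 at 22.3 and 23.9 CPM.

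Type I interferon genes were mixed. Of 28 measured, 22 had a ratio above 0, where 64.2% of all genes did, and 5 of the 26 past the minimum were at least 1.5-fold higher and none lower, with a median of 0.27. Ifit2, which binds viral RNA, had 38.5 CPM in the treated-labelled library and 17.0 CPM in the control-labelled library (1.17, 0.83 to 1.53). The nucleic acid sensor Zbp1 had 82.2 and 53.8 CPM (0.61). Among abundant members, the viral restriction factor Bst2 had 469 CPM in the treated-labelled library and 424 CPM in the control-labelled library (0.14), while others lay below 0, Isg15 at 361 CPM in the treated-labelled library and 399 CPM in the control-labelled library (-0.15) and Oasl1 at 761 and 934 CPM (-0.29).

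**Figure D4:**
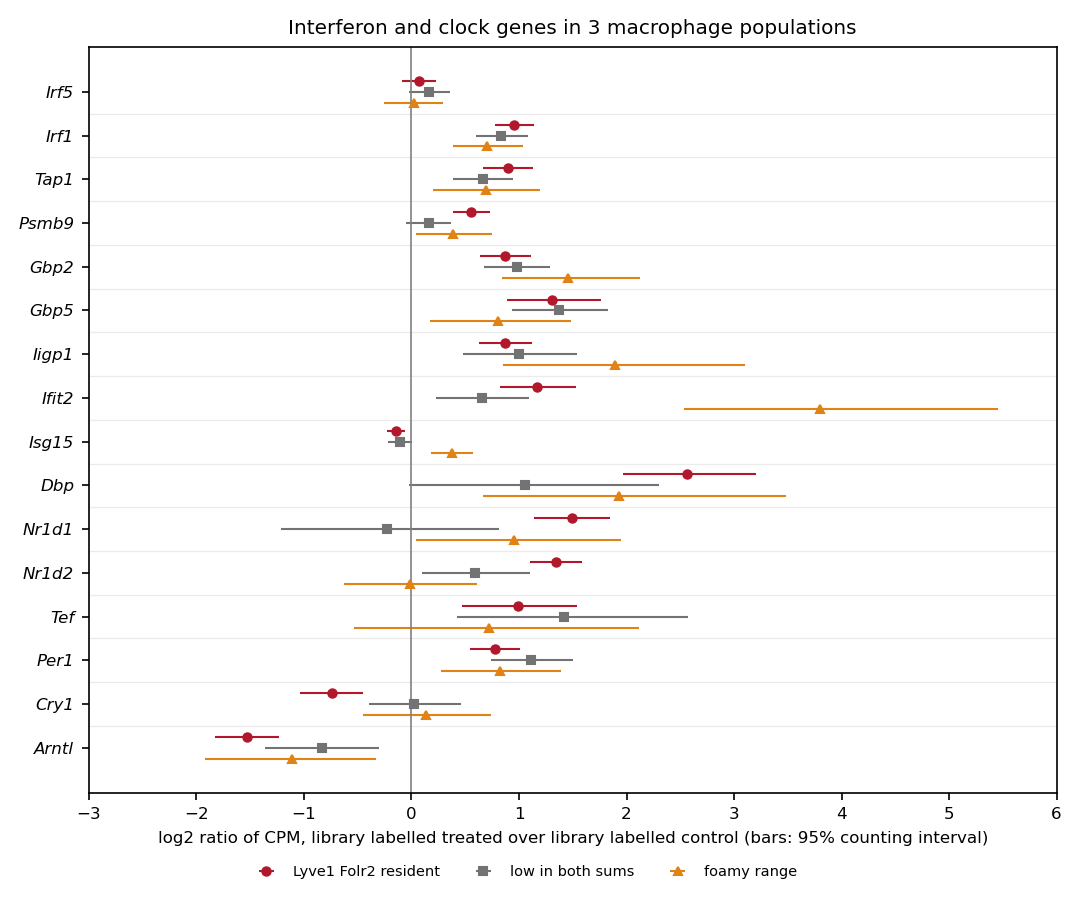
Log2 ratio of CPM in the treated-labelled library over the control-labelled library (horizontal axis) for interferon and clock genes (rows) in resident, low and foamy range C1q macrophages, with 95% counting intervals as bars. Irf1, Gbp2 and Tap1 lie right of 0 in all 3, Irf5 at 0, and Nr1d2 lies at 1.34 in resident macrophages and at -0.01 in foamy range cells.

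Promoters of 3 interferon genes are printed to show the letters by which such genes are known, from 250 bases before to 50 bases after the start in RefSeq, build GRCm38.p6, plus strand. Capitals mark an interferon-stimulated response element, searched as GAAANNGAA on both strands, in Gbp2 and Gbp5, and a gamma-activated site, searched as TTCNNNGAA, in Irf1.
Gbp2, chr3:142620413-142620712: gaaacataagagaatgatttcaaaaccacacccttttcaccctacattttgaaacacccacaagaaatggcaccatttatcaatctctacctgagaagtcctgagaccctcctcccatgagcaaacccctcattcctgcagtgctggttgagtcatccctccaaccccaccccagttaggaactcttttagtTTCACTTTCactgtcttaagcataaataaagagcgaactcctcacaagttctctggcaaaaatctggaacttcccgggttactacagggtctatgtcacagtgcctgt
Gbp5, chr3:142496684-142496983: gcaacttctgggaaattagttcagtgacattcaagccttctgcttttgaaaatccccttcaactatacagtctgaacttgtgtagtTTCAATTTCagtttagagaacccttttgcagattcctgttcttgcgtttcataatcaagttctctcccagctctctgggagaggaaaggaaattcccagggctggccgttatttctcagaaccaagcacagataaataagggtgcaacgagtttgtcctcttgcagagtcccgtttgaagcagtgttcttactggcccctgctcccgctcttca
Irf1, chr11:53769764-53770063: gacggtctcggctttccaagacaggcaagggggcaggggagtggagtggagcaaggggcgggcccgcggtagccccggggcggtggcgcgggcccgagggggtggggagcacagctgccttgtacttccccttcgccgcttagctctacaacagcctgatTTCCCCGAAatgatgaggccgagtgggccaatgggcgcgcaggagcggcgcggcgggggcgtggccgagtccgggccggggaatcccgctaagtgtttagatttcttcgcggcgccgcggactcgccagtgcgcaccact
The response element was found in 12 of the 17 interferon gamma genes with a promoter in the table and in 16 of 25 type I genes, against 9.76% of 27025 genes. The gamma-activated site was found in 7 of the 17, against 9.55% of genes. Among the rule markers, 4 of 5 had a promoter in the table, and the response element was found in Folr2 only. A match is letters in a window and no evidence of binding in these cells.

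Several circadian clock genes had wide ratios that rested on many cells, Dbp the widest. Dbp, an output gene switched on by the clock activators, had 29.3 CPM (223 UMIs in 164 cells) in the treated-labelled library and 4.98 CPM (26 UMIs in 25 cells) in the control-labelled library, a log2 ratio of 2.56 (1.97 to 3.20). Nr1d1, the repressor REV-ERB alpha, had 46.2 CPM in the treated-labelled library and 16.5 CPM in the control-labelled library (1.49, 1.14 to 1.85), and its relative Nr1d2 had 83.0 and 32.7 CPM (1.34). Arntl, the activator BMAL1 that both repress, went the other way, at 18.1 CPM in the treated-labelled library and 52.3 CPM in the control-labelled library (-1.53, -1.83 to -1.23). Cry1, a repressor that peaks late, had 183 and 210 UMIs (-0.74).

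Per1 had 70.2 CPM in the treated-labelled library and 41.0 CPM in the control-labelled library (0.78) and Tef, a partner of Dbp, 15.6 and 7.85 CPM (0.99). Clock itself, at 70.0 and 67.8 CPM, and Per2, at 12.5 and 11.5 CPM, were level within counting error. In all, 4 of the 10 clock genes past the minimum were at least 1.5-fold higher and 2 lower. The shares of cells with a UMI followed the levels, for Dbp 14.6% in the treated-labelled library and 2.91% in the control-labelled library, and for Arntl 10.6% and 23.9%. In T cells those shares were 4.27% and 2.15% for Dbp and 34.1% and 29.0% for Arntl.

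Populations were alike in the direction of some clock genes and not of others. Dbp had a log2 ratio of 1.93 in foamy range cells and 1.06 in low C1q macrophages (-0.03 to 2.30). Arntl had -1.11 and -0.83, below 0 as in the members. Nr1d1 had 0.95 in foamy range cells (0.04 to 1.95), an interval that holds the members' 1.49. In low cells Nr1d1 had -0.22 (-1.21 to 0.81), from 24 and 15 UMIs. Nr1d2 had -0.01 in foamy range cells and 0.59 in low cells, where the members had 1.34. Nr1d1 was also more abundant in members than in other C1q macrophages of the same library, by 2.26 log2 units in the treated-labelled library and 1.13 in the control-labelled library. The differences between populations were not tested. The labels give no time of day for either library, so the hour of tissue collection and the treatment cannot be told apart.

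Promoters of Per1 and Tef are printed as 2 clock genes with a higher level in the treated-labelled library that carry the E-box CACGTG, in capitals, from the same RefSeq table, plus strand.
Per1, chr11:69098699-69098998: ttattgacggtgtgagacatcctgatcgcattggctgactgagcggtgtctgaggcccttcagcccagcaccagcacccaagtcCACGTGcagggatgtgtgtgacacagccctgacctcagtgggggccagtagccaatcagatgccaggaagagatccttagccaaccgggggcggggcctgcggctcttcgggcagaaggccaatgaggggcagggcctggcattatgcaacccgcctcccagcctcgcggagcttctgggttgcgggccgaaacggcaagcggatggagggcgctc
Tef, chr15:81802423-81802722: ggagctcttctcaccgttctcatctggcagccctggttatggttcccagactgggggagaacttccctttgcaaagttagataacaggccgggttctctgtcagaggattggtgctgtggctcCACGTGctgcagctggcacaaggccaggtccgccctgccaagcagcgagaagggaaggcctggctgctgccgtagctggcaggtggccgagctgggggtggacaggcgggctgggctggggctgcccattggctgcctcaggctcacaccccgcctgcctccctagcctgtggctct
The E-box reads the same on both strands and was found in 5 of the 16 clock genes with a promoter in the table, against 8.09% of 27025 genes. It was also in Cry1 and Bhlhe41, whose ratios were -0.74 and -0.18, so it does not go with 1 direction. Dbp and Nr1d1 were not among them in this window.

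Glucocorticoids, which follow a daily course of their own, switch on Per1 among other genes. Of 17 genes on that list, 12 had a ratio above 0, near the 64.2% of all genes, with a median of 0.11. Of the 15 past the abundance minimum, 2 were at least 1.5-fold higher and 1 lower. Tsc22d3, which encodes the anti-inflammatory protein GILZ, had 301 CPM in the treated-labelled library and 180 CPM in the control-labelled library (0.74). Fkbp5, a close reporter of the hormone receptor, had 87.6 and 83.9 CPM (0.06). Errfi1, an inhibitor of EGFR signalling, had 333 CPM in the treated-labelled library and 576 CPM in the control-labelled library (-0.79).

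Chemokines of the CC and CXC families were mixed, with a median of -0.14 over 21 measured genes, 9 above 0 and 12 below, and 2 of 17 past 1.5-fold higher and 2 lower. The 2 higher were Ccl24, described above, and the neutrophil chemokine Cxcl3, at 68.9 CPM in the treated-labelled library and 42.7 CPM in the control-labelled library (0.69). Cxcl2, also a neutrophil chemokine and among the most abundant transcripts of the cells, had 10703 CPM in the treated-labelled library and 14726 CPM in the control-labelled library (-0.46). Ccl4 had 3839 and 5497 CPM (-0.52), Ccl3 700 and 1032 CPM (-0.56) and the monocyte chemokine Ccl12 397 and 602 CPM (-0.60). Ccl2 and Ccl7, also monocyte chemokines, had 2710 and 3454 CPM in the treated-labelled library and 3095 and 4336 CPM in the control-labelled library. In foamy range cells the same list had a median of 0.35, and in low cells -0.16.

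Cxcl13, which attracts B cells, had 79.8 CPM in the treated-labelled library and 166 CPM in the control-labelled library (-1.05, -1.21 to -0.90), from 94 and 133 cells. Its ratio was -4.62 in low C1q macrophages, from 21 and 277 UMIs, and 1.15 in foamy range cells, from 32 and 10 UMIs. Cxcl12, a chemokine that holds leukocytes in tissue, had 18.9 CPM in the treated-labelled library and 8.62 CPM in the control-labelled library (1.13).

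Inflammatory cytokine genes, some of which IRF5 is known to drive, were near the background as a list. Their median was 0.07 over 20 measured genes, and of the 18 past the abundance minimum 1 was at least 1.5-fold higher and none lower. The list is general and not a set of IRF5 targets. Tnf had 586 CPM in the treated-labelled library and 696 CPM in the control-labelled library (-0.25), Il1b 887 and 828 CPM (0.10, but -0.12 without sub-clusters 3 and 7) and Il6 79.0 and 84.5 CPM (-0.10). Il1a had 113 and 168 CPM (-0.56) and the inflammasome sensor Nlrp3 602 and 788 CPM (-0.39). Il10, the anti-inflammatory cytokine, had 604 CPM in the treated-labelled library and 551 CPM in the control-labelled library (0.13). Among alternative activation genes, Retnla had 2039 and 2499 CPM (-0.29) and Chil3 79.0 and 53.4 CPM (0.56, but -0.31 in cells with at most 1 UMI of other lineages).

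Lipid handling genes had a median of 0.01 over 30 measured, with 3 of 23 past 1.5-fold higher and 1 lower, but their ends were far apart. Lpl, lipoprotein lipase, had 247 CPM in the treated-labelled library and 86.0 CPM in the control-labelled library (1.53, 1.38 to 1.68), with a UMI in 27.8% and 15.2% of cells and in 1.55% and 0.498% of T cells. The cholesterol exporter Abcg1 had 115 and 53.0 CPM (1.12, 0.92 to 1.32) in 466 and 195 cells. Its partner Abca1 had 985 and 1121 CPM (-0.19). Fabp5 had 109 CPM in the treated-labelled library and 51.3 CPM in the control-labelled library (1.08), while Fabp4, another fatty acid carrier, had 28.0 and 66.6 CPM (-1.25).

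Ch25h, which makes 25-hydroxycholesterol, had 7.35 CPM in the treated-labelled library and 18.4 CPM in the control-labelled library (-1.32). In foamy range cells, where Lpl and Fabp5 are most abundant, their ratios were 0.10 and 0.04. Apoe, usually a plentiful macrophage transcript, had 57 UMIs in the treated-labelled library and 44 in the control-labelled library over all members, or 7.48 and 8.43 CPM. It was scarce in the other C1q macrophages too, at 7.45 and 4.69 CPM in foamy range cells and 2.96 and 2.98 CPM in low cells. Trem2, the lipid receptor of foamy macrophages, had 139 and 118 CPM (0.25).

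Other gene groups held fewer differences. Medians were -0.04 over 17 measured iron and haem genes and 0.06 over 28 lysosome genes. None of the 15 and 25 of them past the abundance minimum passed 1.5-fold. Hmox1, haem oxygenase, had 1401 CPM in the treated-labelled library and 1522 CPM in the control-labelled library. Complement genes had a median of -0.01 over 17 measured. Of the 10 past the abundance minimum, C3 alone passed 1.5-fold, at 55.7 CPM in the treated-labelled library and 23.6 CPM in the control-labelled library (1.24). Receptors for complement peptides were lower, C5ar1 at 612 and 870 CPM (-0.51) and C3ar1 at 429 and 568 CPM (-0.41). Among receptors for growth factors and cytokines, Ifnar1, for type I interferon, had 70.4 and 44.6 CPM (0.66) and the chemokine receptor Ccr1 140 and 220 CPM (-0.65). Csf1r, on whose signal macrophages depend, had 548 and 589 CPM (-0.10).

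Immediate early and heat shock genes, which respond to tissue digestion as well as to stimuli in the animal, had a median of 0.16 over 24 measured. Of the 23 past the abundance minimum, 2 were at least 1.5-fold higher. Myc was the 1 lower. Nr4a1 had 413 CPM in the treated-labelled library and 254 CPM in the control-labelled library (0.70) and Hspa1b 385 and 255 CPM (0.59). With the sub-clusters at the same weight the Hspa1b ratio was 0.05. Among 20 genes that restrain phagocytes, none of the 15 past the abundance minimum passed 1.5-fold. Sirpa, the receptor for the do-not-eat-me signal CD47, had 319 and 232 CPM (0.46).

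**Figure D5:**
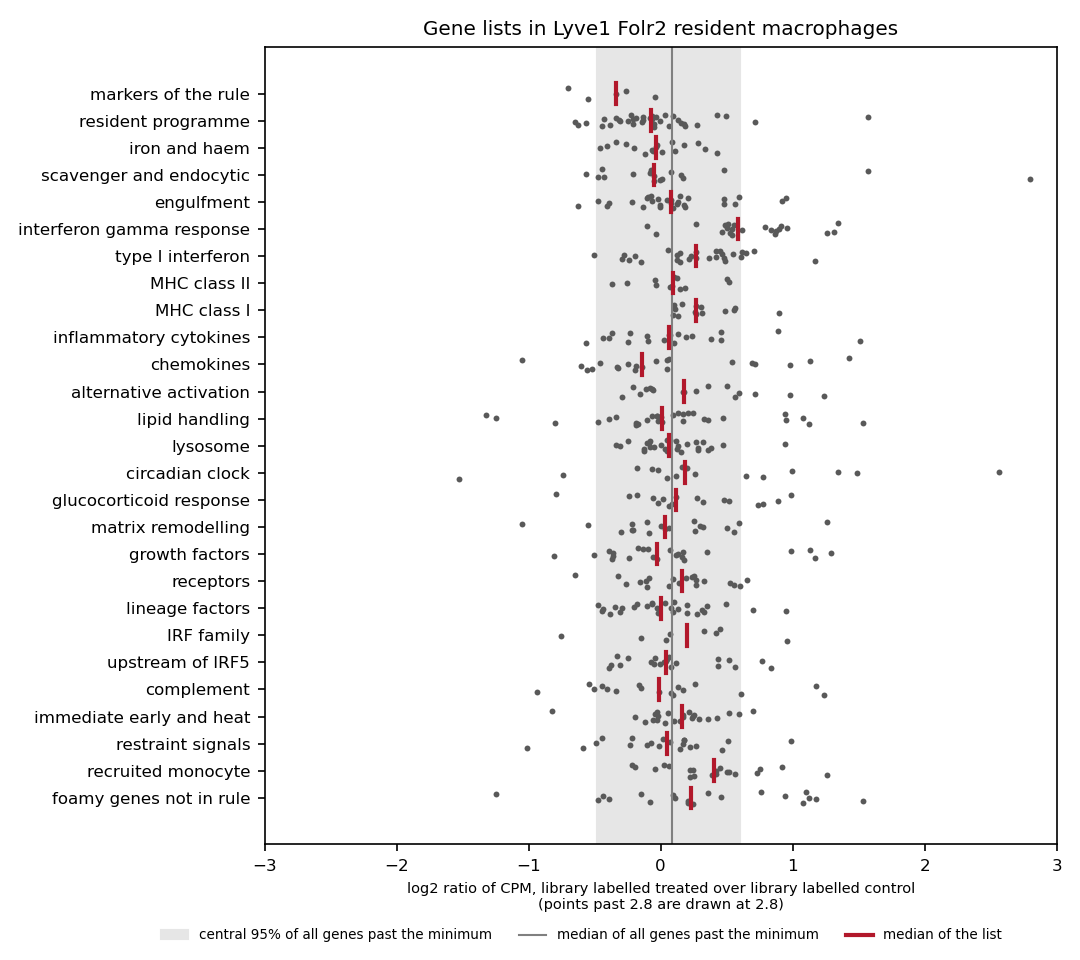
Log2 ratio of CPM in resident macrophages, treated-labelled over control-labelled library (horizontal axis), for each gene of 27 lists (rows, points), with the list median as a red bar and the central 95% of all genes shaded. The interferon gamma list has its median at 0.59 and the rule markers at -0.34, and the other medians lie between -0.14 and 0.41.

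Monocyte genes were on the opposite side to the rule markers. Of 20 genes listed for recruited monocytes, 17 had a ratio above 0, 4 of 19 were at least 1.5-fold higher and none lower, with a median of 0.41. Vcan, a matrix proteoglycan of classical monocytes, had 50.2 CPM in the treated-labelled library and 20.9 CPM in the control-labelled library (1.26), in 65 and 34 cells. Ly6c2 had 72.7 and 62.4 CPM (0.22) and Ccr2 194 and 162 CPM (0.26). These values changed with the cells included. Without sub-clusters 3 and 7 the median of the list was 0.26, Vcan had a log2 ratio of 0.15 and Ly6c2 of -0.29, and with every sub-cluster given the same weight in both libraries the median was 0.08.

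Transcripts of other cell types were present in the members at low levels. Summed over 9 neutrophil genes, they were 2189 CPM in the treated-labelled library and 2003 CPM in the control-labelled library, and over 8 plasma cell genes 1937 and 3369 CPM. Summed T cell genes were 45.4 and 34.9 CPM, B cell genes 23.8 and 26.4 CPM, and mast cell genes 151 and 27.6 CPM, the last mostly from 1 cell. A UMI of S100a8, a neutrophil gene, was found in 42.6% of members in the treated-labelled library and 28.0% in the control-labelled library, and in 36.4% and 24.9% of T cells, which is close to a level of free RNA. By amount, most S100a8 UMIs lay in the 63 cells of sub-cluster 7, of which 57.1% were called as doublets. They had 18070 CPM of S100a8, against 73.9 CPM in the other members. Immunoglobulin transcripts were 0.181% of the members' UMIs in the treated-labelled library and 0.403% in the control-labelled library, where all kept barcodes had 5.44% and 15.4%. The part of these transcripts in the gene differences was not tested.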

How the data were processed

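The authors deposited whole-number UMI counts per gene and cell barcode, 1 matrix per library, per the file headers from Cell Ranger 7.2.0. The submitters' processing notes name Cell Ranger 3.1.0, Seurat 4.4.0 and mm10, and the labels' protocols a 10x 3′ kit. The sources used here do not say how introns and free RNA were treated, and no correction for free RNA was made.

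Cells were kept and chosen by the rule above. The resident macrophages and the gene lists were chosen with earlier results of these data known. UMIs were summed over the cells of a library and expressed as CPM, with exact Poisson intervals, and ratios with exact conditional binomial intervals, both at 95% and for counting error only. Genes counted as past 1.5-fold had at least 50 UMIs and 20 CPM in 1 library, and list medians cover genes with at least 20 UMIs over both. Folds against 0 UMIs were computed with 3 UMIs in its place, per library. Named genes were the 12 highest and 12 lowest ratios, the 15 highest and 15 lowest against other C1q macrophages, and from each list up to 6 of the largest ratios with members whose level or role is the point. Clustering used scanpy 1.11.5 with igraph 0.11.9, and intervals scipy 1.17.1 under Python 3.11.15. The ratio code was tested on simulated counts. Symbols were matched by gene ID to the GENCODE annotation of GRCm38 for locations. The alternatives tried are given at the end.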

Additional observations from a re-analysis of the deposited data

Results flagged for a closer look

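Among the genes followed through every alternative, 10 had log2 ratios of the treated-labelled library over the control-labelled library past 1.5-fold in opposite directions in resident macrophages and in foamy range or low C1q macrophages, with both intervals excluding 0. Other genes of the files were not screened for this. With 1 library per group none of these differences was tested. Cxcl13 had -1.05 in resident macrophages and 1.15 in foamy range cells, and -4.62 in low cells, the same sign as in resident macrophages. Il1r2, the decoy receptor for interleukin 1, had 0.89 in resident macrophages and -1.06 in foamy range cells. C3 had 1.24 in resident macrophages, and in foamy range cells an interval from -1.38 to -0.63. Cxcl12 had 1.13 in resident macrophages, against -4.58 in foamy range and -1.14 in low cells. Dcn, a matrix proteoglycan made by fibroblasts, had 1.5 in resident macrophages and -3.64 in foamy range cells, and in the treated-labelled library 40.6% of its resident UMIs came from 1 cell. Cd5l had 1.57 in resident macrophages, with 60.2% of its UMIs in the treated-labelled library from 1 cell, and -1.69 in low cells. The neutrophil granule genes were the reverse of it, Camp at -2.44 in resident macrophages and 3.32 in low cells, Ltf at -2.43 and 2.14, and Ngp at -1.36 and 1.12. In the control-labelled library 50.1%, 45.0% and 53.5% of their resident UMIs came from 1 cell. Without called doublets Camp had 0.28 and Ngp 0.27 in resident macrophages, while Ltf stayed below 0 under every alternative. Marco had 5.30 in resident macrophages, from 3 cells and with 3 UMIs in place of 0, and -4.99 in low cells, from 1 and 17 UMIs.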

How the results depend on the processing

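No paired analysis was possible because there was 1 library per group. The alternatives on F13a1, narrowed lineage lists, sub-clusters and single cells were chosen after seeing the data. Resident macrophages in the treated-labelled library and the control-labelled library were 10.8% and 7.67% of kept barcodes with at least 1000 genes, 8.11% and 6.46% with at least 6 marker UMIs, 6.96% and 5.83% without F13a1, 6.28% and 5.24% with at most 1 UMI of the other lineages' lists less their abundant free RNA, and 8.04% and 6.58% without sub-clusters 3 and 7. With at most 1 foam cell UMI the share in the treated-labelled library was 8.48%. As shares of C1q macrophages the values were 47.7% and 54.4% with at least 6 marker UMIs, 41.0% and 49.1% without F13a1, 37.0% and 44.2% with the lineage limit, and 47.3% and 55.4% without sub-clusters 3 and 7, with 49.9% in the treated-labelled library at the foam cell limit. Each pair kept its order. The full lineage lists gave no value, since 11 and 0 cells were left. Genes at least 1.5-fold higher numbered 322 in thinned cells, 102 after centring, 111 with sub-clusters at the same weight and 870 with a minimum of 20 UMIs, against 167, and genes lower numbered 131 after centring and 419 with that minimum, against 81. The Irf5 ratio was 0.26 in thinned cells.

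Of the gene ratios under an alternative, 1581 stayed within their counting interval, 282 moved past it and 22 changed sign. The last count holds only ratios whose interval excluded 0. Ratios whose interval held 0, such as those of Folr2, Irf5, Mertk, Axl, Stab1, Clock and Cxcl10, also took both signs and are counted elsewhere. With the lineage limit Mrc1 had 0.0564, Pf4 -0.00762, Cd74 0.0358, Chil3 -0.31 and Ngp 0.29. Thinned, Mrc1 had 0.0129, and centred, Pf4 had -0.0204. With sub-clusters at the same weight Mrc1 had 0.0072, Hmox1 0.0206, Il1b -0.13, Ccl2 0.054 and Ly6c2 -0.11. Cd74 had 0.0338 without F13a1, 0.0325 without sub-clusters 3 and 7 and 0.0164 with every cell at the same weight. Without called doublets Il1b had -0.00424, Camp 0.28 and Ngp 0.27. Without sub-clusters 3 and 7 Il1b had -0.12, Camp 0.14, Ly6c2 -0.29 and Ngp 0.24. The interferon gamma median stayed between 0.45 and 0.87 and that of engulfment between -0.01 and 0.08. Depth limits genes of few UMIs most, and the causes of these shifts were not tested.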
